A study of Rattus norvegicus with 12 samples.

Results

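The genes described here code for the proteins of the cytosolic ribosome, read in the epididymal white fat of fed and fasted rats. They were taken by symbol: every gene of the array with a platform symbol beginning with Rpl or Rps and a digit, and Rplp0, Rplp1, Rplp2 and Rpsa, without the ribosomal S6 kinases (Rps6k). The rule found 74 of the 14506 genes that had a platform symbol of their own. Each gene stood on its brightest probe set, chosen by the mean over all arrays. Of the 74, 39 belong to the large (60S) subunit, 26 to the small (40S) subunit and 3 to the stalk of the large subunit. The other 6 carry a matching symbol but lie outside that core as it was listed by symbol: Rpl17-ps16, Rpl22l1, Rpl36al1, Rpl37l1, Rps19bp1 and Rps4y2. RefSeq also lists the symbol Rpl37 under Rpl37l1, so the large-subunit counts leave that gene out by name only. Some other genes of the core were not analysed here.

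The study compared 12 male Sprague-Dawley rats, assigned at random to 3 groups of 4: fed rats, rats fasted until phase 2 and rats fasted until phase 3. No genetic change or drug is given for any group, and neither age nor the hours of fasting is given in the sources used here. Each rat gave 1 sample of epididymal white adipose tissue and 1 Affymetrix Rat Gene 1.0 ST array, with no technical repeats. Phase 2 is, as background, the long stretch of a fast in which fat supplies most of the energy and protein is spared, and phase 3 is the late stretch in which fat stores run low and protein loss speeds up.

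A ribosome reads messenger RNA and joins amino acids into protein. The small subunit holds the message, the large subunit makes the peptide bond, and the stalk proteins call in the elongation factors. The genes of these proteins are strongly expressed in most tissues, and their messages begin with a run of pyrimidines at the cap, the terminal oligopyrimidine (TOP) tract, through which mTORC1, the kinase complex that senses nutrients, sets how much of each message is translated. Arrays read the amount of message, not its translation.

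The start sites of members on which the results turn are shown because the TOP tract lies there. Each line gives 15 bases on either side of the start annotated by RefSeq in build GRCr8, on the transcript's strand, 5′ to 3′. Capitals mark the longest run that begins with C within 10 bases of the start and goes on with at least 4 further C or T letters. Rplp2, Rpl11 and Rpl22l1 are shown because no such run was found there.
Rplp2 (chr1:205975906-205975935, plus strand): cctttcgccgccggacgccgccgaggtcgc
Rplp1 (chr8:71290858-71290887, minus strand): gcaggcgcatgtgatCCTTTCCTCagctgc
Rplp0 (chr12:46718376-46718405, minus strand): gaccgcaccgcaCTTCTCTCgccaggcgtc
Rps18 (chr20:4933730-4933759, plus strand): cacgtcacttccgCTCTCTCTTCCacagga
Rps27 (chr2:177964592-177964621, minus strand): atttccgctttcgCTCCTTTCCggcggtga
Rpl5 (chr14:1995211-1995240, minus strand): actctCTTTCCCacgtcgcttgcgtcctgg
Rpl11 (chr5:153560788-153560817, minus strand): ggggacttgaagcttgtttggtgctgggga
Rpl22 (chr5:168117946-168117975, plus strand): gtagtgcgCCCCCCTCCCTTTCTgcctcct
Rpl22l1 (chr2:113683181-113683210, plus strand): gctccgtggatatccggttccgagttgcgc
Rpl29 (chr8:115947628-115947657, plus strand): gggcctttCTCTTTCTCTTCCggtcccagg
Rps4y2 (chr4:183000898-183000927, plus strand): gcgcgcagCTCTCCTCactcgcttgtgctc

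RefSeq promoters were found for 61 of the 74 members. A run of this kind was present at 45 of the 61 starts (73.8%), against 27.7% of the 27457 promoters of 300 bases in the table. The word CTTTCC, which can lie inside such a run, stood within 50 bases of the start in 22 members (36.1%) and in 4.55% of all promoters. Its reverse complement GGAAAG stood there in 2 members (3.28%) and in 4.47% of all promoters. A match is a description of the letters, and an annotated start can lie some bases from the true cap.

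Most members read slightly higher in both fasted groups than in fed rats, and 32 of the 74 passed the test in each. The median log2 change of the 74 members was 0.21 in phase 2 against fed, beside 0.01 over all genes tested, and 0.18 in phase 3 against fed, beside 0.05. Between phase 3 and phase 2 the median was -0.02, beside 0.03. In fold terms the largest rise of any member was 1.41-fold in phase 2 and 1.42-fold in phase 3. The shift was present in each fasted rat. The members' median deviation from the fed mean was 0.02, -0.09, 0.03 and 0.05 (log2) in the fed rats 1 to 4. It was 0.12, 0.23, 0.24 and 0.24 in the phase 2 rats and 0.22, 0.23, 0.11 and 0.19 in the phase 3 rats. No fasted rat fell within the range of the fed rats. Among the fed rats, fed rat 2 stood apart, with 11 of the 74 members above the fed mean, where the others had 51 to 59.

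**Figure D1:**
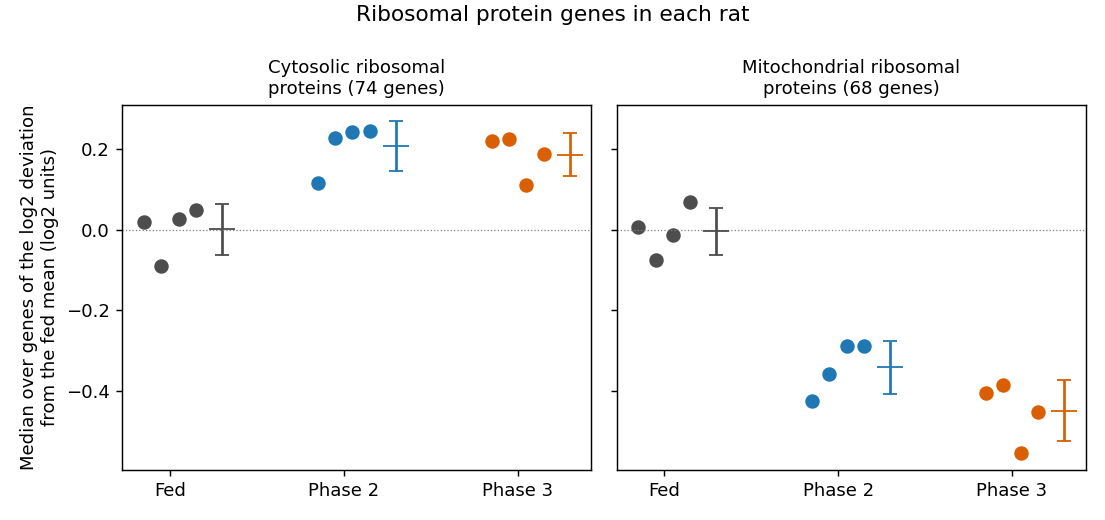
Median over genes of the log2 deviation from the fed mean, in log2 units, for the 74 cytosolic and the 68 mitochondrial ribosomal protein genes; each point is 1 rat, and the bar gives the mean ± SD of 4 rats. All 8 fasted rats lie above the fed rats for the cytosolic genes (0.11 to 0.24) and below them for the mitochondrial genes (-0.55 to -0.29).

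In phase 2 against fed, 32 of the 74 members were called higher and 1 lower at an adjusted p below 0.05 (limma, Benjamini-Hochberg over all genes tested), and 41 were not called. Over all genes 9.66% were called higher and 15.5% lower. The sign alone was positive for 68 members (91.9%), against 51.4% of all genes. By subunit, 18 of 39 large-subunit genes, 10 of 26 small-subunit genes and 2 of 3 stalk genes were called higher, and none of these 68 core genes was called lower. The levels of all 4 phase 2 rats lay above all 4 fed rats for 38 members, where 12.6% of all genes did so.

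The phase 2 count depended on single rats. It fell to 21 without fed rat 1, to 17 without fed rat 2, and to 21, 18 and 18 without phase 2 rats 2, 3 and 4. Over all genes 7.89%, 8.53%, 7.6%, 8.14% and 8.84% were called higher in those fits, which have 1 rat fewer. The count was also lower without fed rat 3, at 22, and without fed rat 4, at 23, with 7.45% and 6.9% of all genes. Without phase 2 rat 1 it was 33, with 7.68% of all genes. The median change of the members was 0.17 without fed rat 2 and 0.24 without phase 2 rat 1, the fasted rat with the lowest members in its group. The count of lower members became 2, with Rpl22l1 added, without fed rat 2, phase 3 rat 2 or phase 3 rat 3.

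In phase 3 against fed, 32 members were again called higher, 2 lower and 40 not called, on a background of 21.1% of all genes higher and 24.3% lower. The sign was positive for 61 members (82.4%), against 56.6% of all genes. The large subunit had 17 genes higher and 1 lower, the small subunit 11 higher and none lower, and the stalk 2 higher. For 37 members the 4 phase 3 rats all lay above the 4 fed rats, against 19.2% of all genes. Without 1 rat the count of higher members ran from 23 (without fed rat 2) to 35 (without phase 3 rat 3), with 20.1% and 20.6% of all genes called higher in those fits. Without fed rat 1, 3 or 4 the count of lower members was 1, since Rpl29 was then not called.

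Both comparisons use the same 4 fed rats, so their calls are not independent of each other. Side by side, 26 members were called higher in both, 6 in phase 2 alone (Rpl9, Rpl22, Rpl23a, Rpl32, Rps10, Rps15a) and 6 in phase 3 alone (Rpl8, Rpl23, Rpl36, Rps3, Rps12, Rps27). These names were taken after the values were seen. Of all genes, 9.66% were called higher in phase 2 and 21.1% in phase 3. The share of all genes called higher in both is not given here. A call in one phase alone is no test of a difference between phases. That test, phase 3 against phase 2, called no member higher and 1 lower, Rpl29 (limma), on a background of 12.8% higher and 15.1% lower. At an unadjusted p below 0.05 it gave 1 member higher and 3 lower, beside 2655 and 2830 of the 14506 genes tested. It called 1 higher, Rpl22l1, without fed rat 2 or phase 3 rat 3, and 2 lower without phase 2 rat 2 (with Rpl13) or phase 3 rat 2 (with Rpl15).

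**Figure D2:**
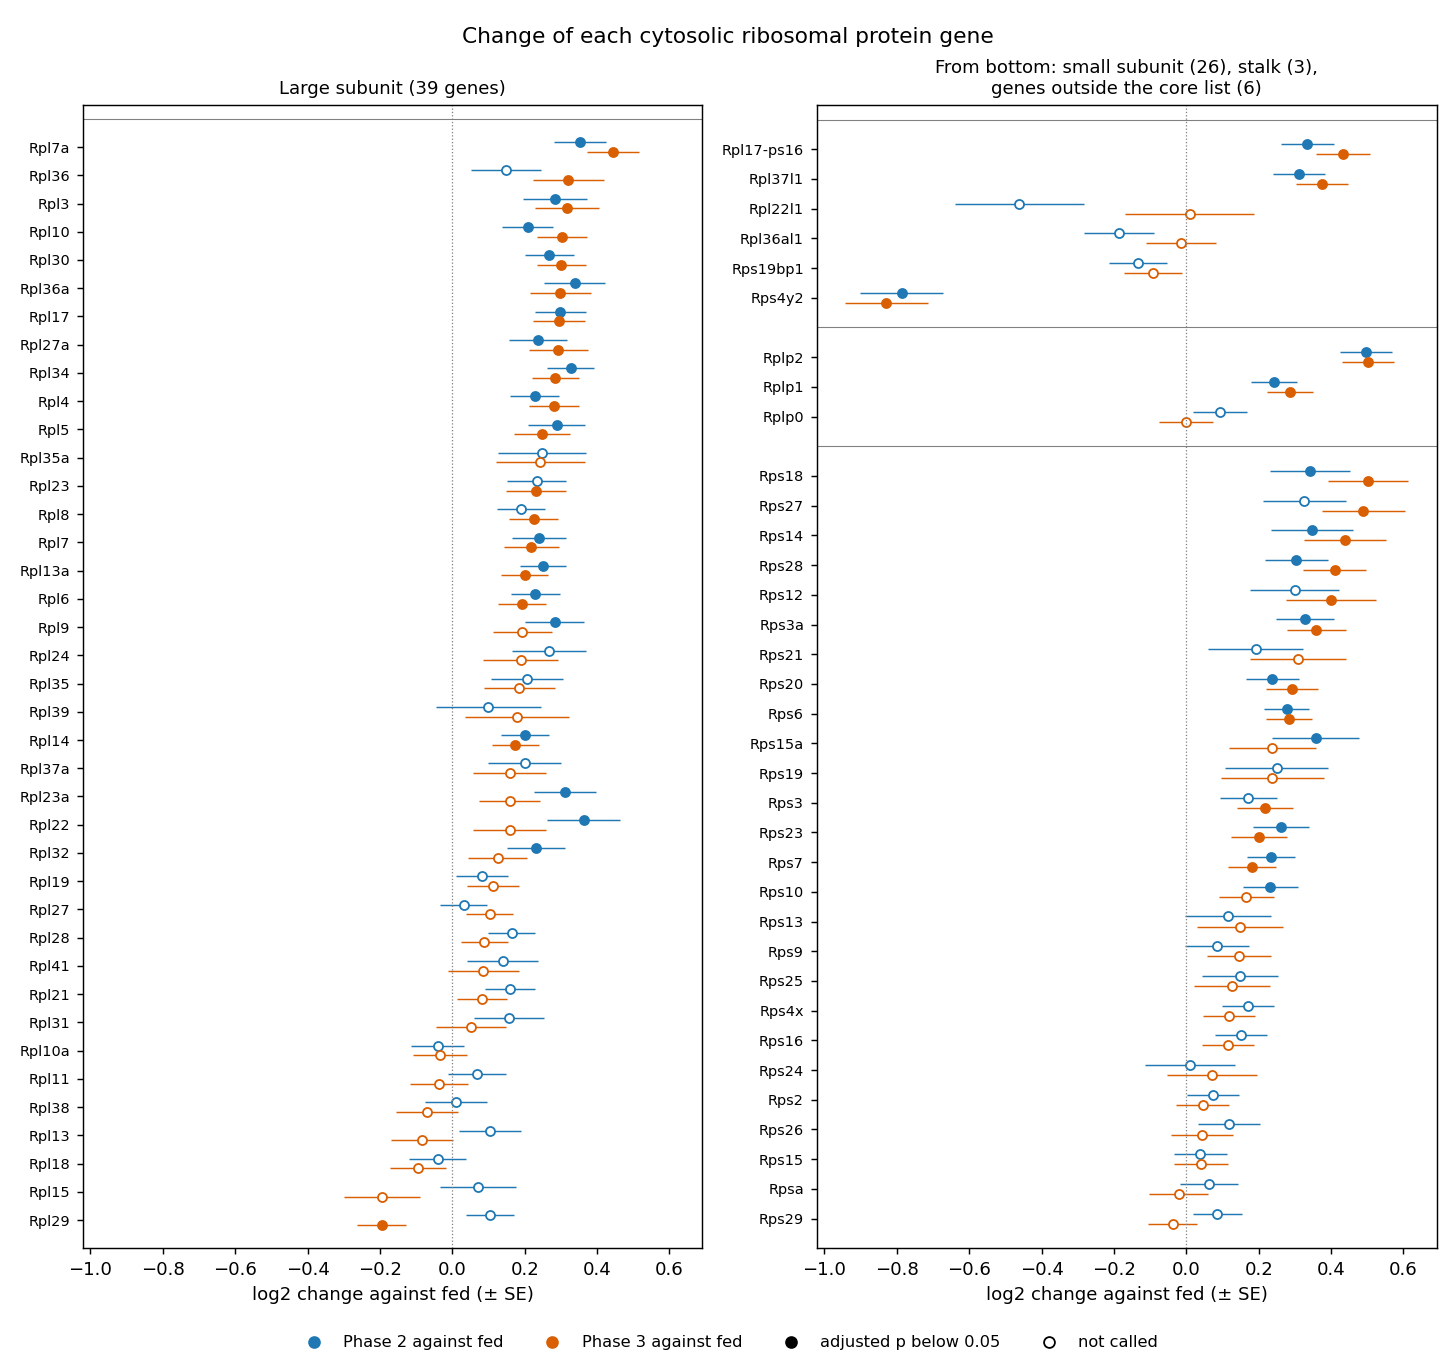
log2 change against fed of each of the 74 members (± SE from the limma fit, 4 rats a group), phase 2 in blue and phase 3 in orange, with filled points at an adjusted p below 0.05. Most points lie between 0 and 0.5 in both phases; Rps4y2 lies near -0.8 in both, Rpl29 is below 0 in phase 3, and Rpl22l1 is below 0 in phase 2 with a wide error.

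The arrays' scale bears on these counts. Over the genes tested, the mean of the arrays' median levels was 6.97 for the fed group, 6.91 for phase 2 and 6.82 for phase 3. When each array was centred on its median, the median change of all genes went from 0.05 to 0.21 in phase 3 against fed. The members' median went to 0.34, and 56 members were called higher, with 42.2% of all genes called higher and 18.4% lower. Relative to the median of all genes, which centring cannot change, the members' median was 0.13 higher in phase 3 against fed. That value was 0.16 after cyclic loess, 0.20 after a repeated quantile normalisation and 0.07 without fed rat 2. It was 0.24 when the dimmest 40% of genes were dropped. In phase 2 it was 0.20 higher, 0.20 after cyclic loess, 0.24 after a repeated quantile normalisation and 0.15 without fed rat 2. Centring gave 42 members called higher in phase 2, with 14% of all genes higher and 12.4% lower. The direction of the members' median against fed was the same under every scaling tried.

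The members lie high on the array's scale, with a median level of 11.52 against 6.92 for all genes tested. When only the 998 genes with a mean level of at least 10 were tested, an alternative chosen after seeing the data, 38 of 62 members were called higher in phase 2, on a background of 28.8%. In phase 3 it was 32 of 62, on a background of 34.8%. The sign was positive for 60 of these 62 members in phase 2, against 47.6% of the bright genes, and for 53 in phase 3, against 47.3%. The 99th percentile of the levels was not higher in the fasted rats: its mean was 11.80 for the fed group, 11.71 for phase 2 and 11.70 for phase 3.

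Of the stalk genes, 2 of 3 rose in both phases. Rplp2 codes for P2, an acidic protein that pairs with P1 on the stalk. Its log2 level was 12.04, 12.03, 12.05 and 12.21 in the fed rats, 12.47, 12.68, 12.59 and 12.57 in phase 2 and 12.62, 12.57, 12.56 and 12.59 in phase 3. All 8 fasted rats lay above all fed rats, and the highest fed rat was fed rat 4. The log2 change was 0.50 ± 0.0726 (SE) in phase 2 (adjusted p = 0.000208, limma) and 0.50 in phase 3 (adjusted p = 5.2e-05), the largest rise of any member in phase 2. The log2 change of Rplp2 stayed past the threshold in all 22 alternative fits of the phase 2 comparison, with adjusted p from 2.85e-05 to 0.00114.

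Rplp1, the gene of the partner P1, read 12.51, 12.48, 12.44 and 12.50 in fed, 12.70, 12.76, 12.72 and 12.72 in phase 2 and 12.84, 12.72, 12.76 and 12.75 in phase 3 rats. The groups of fasted rats did not overlap the fed rats, and the changes were 0.24 ± 0.0643 (adjusted p = 0.0126, limma) and 0.29 (adjusted p = 0.00207). Rplp0 codes for the scaffold on which the P1 and P2 pairs sit, and its message is often used as a reference in quantitative PCR. It read 11.62, 11.56, 11.63 and 11.71 in fed, 11.69, 11.61, 11.80 and 11.80 in phase 2, and 11.62, 11.67, 11.54 and 11.69 in phase 3 rats. Its groups overlapped, and it was not called, with 95% intervals of the log2 change of -0.07 to 0.25 in phase 2 and -0.16 to 0.16 in phase 3. The difference between Rplp2 and Rplp0 was not tested.

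Among small-subunit genes, Rps18, Rps27 and Rps14 had the largest changes in phase 3. Rps18, whose protein sits in the head of the subunit, read 10.41, 10.06, 10.46 and 10.41 in fed, 10.37, 10.82, 10.78 and 10.73 in phase 2, and 10.74, 10.84, 10.87 and 10.90 in phase 3 rats. Phase 2 rat 1 lay among the fed rats and every phase 3 rat lay above them. The change was 0.34 ± 0.111 in phase 2 (adjusted p = 0.036, limma) and 0.50 in phase 3 (adjusted p = 0.00183). Rps14, whose protein lies on the platform of the subunit and whose loss in blood cells is tied to a form of anemia, read 10.67, 10.27, 10.65 and 10.72 in fed and 10.66, 10.93, 11.08 and 11.03 in phase 2 rats. In phase 3 rats it read 11.00, 11.07, 10.92 and 11.08. Here too phase 2 rat 1 lay within the fed range, and the changes were 0.35 ± 0.112 (adjusted p = 0.0359) and 0.44 (adjusted p = 0.00535).

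Rps27, a small zinc-binding protein of the subunit, was read by 1 probe set, at 6.75, 6.96, 6.88 and 6.51 in fed, 7.14, 7.11, 7.10 and 7.05 in phase 2, and 7.21, 7.36, 6.99 and 7.50 in phase 3 rats. Both fasted groups lay above the fed rats, and only phase 3 was called: 0.49 ± 0.114 (adjusted p = 0.0028, limma), after 0.33 in phase 2 (adjusted p = 0.0506). The change between the phases was 0.16 (adjusted p = 0.328).

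Rps6 codes for the protein that the S6 kinases phosphorylate when mTORC1 is active. Its level was 12.41, 12.41, 12.45 and 12.41 in the fed rats, 12.65, 12.74, 12.69 and 12.71 in phase 2 and 12.74, 12.71, 12.66 and 12.71 in phase 3. The fed rats lay within a narrow range and below every fasted rat. The change was 0.28 ± 0.0631 in both phases (adjusted p = 0.005 and 0.00199, limma), and the interval of the change between phases ran from -0.13 to 0.14. The arrays read the Rps6 message and not its phosphorylation.

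Rpsa, which makes a small-subunit protein also known as the laminin receptor, and Rps29, a small zinc-binding protein, were not called in any comparison. Their 95% intervals in phase 2 were -0.11 to 0.24 and -0.06 to 0.23, and in phase 3 -0.19 to 0.15 and -0.18 to 0.11. Rps15a was higher in phase 2, by 0.36 ± 0.12 (adjusted p = 0.0422, limma), and not called in phase 3 (0.24, adjusted p = 0.123). Phase 2 rat 1, at 10.45, lay within the fed range of 10.04 to 10.49, and the other phase 2 rats read 10.74 to 10.87.

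**Figure D3:**
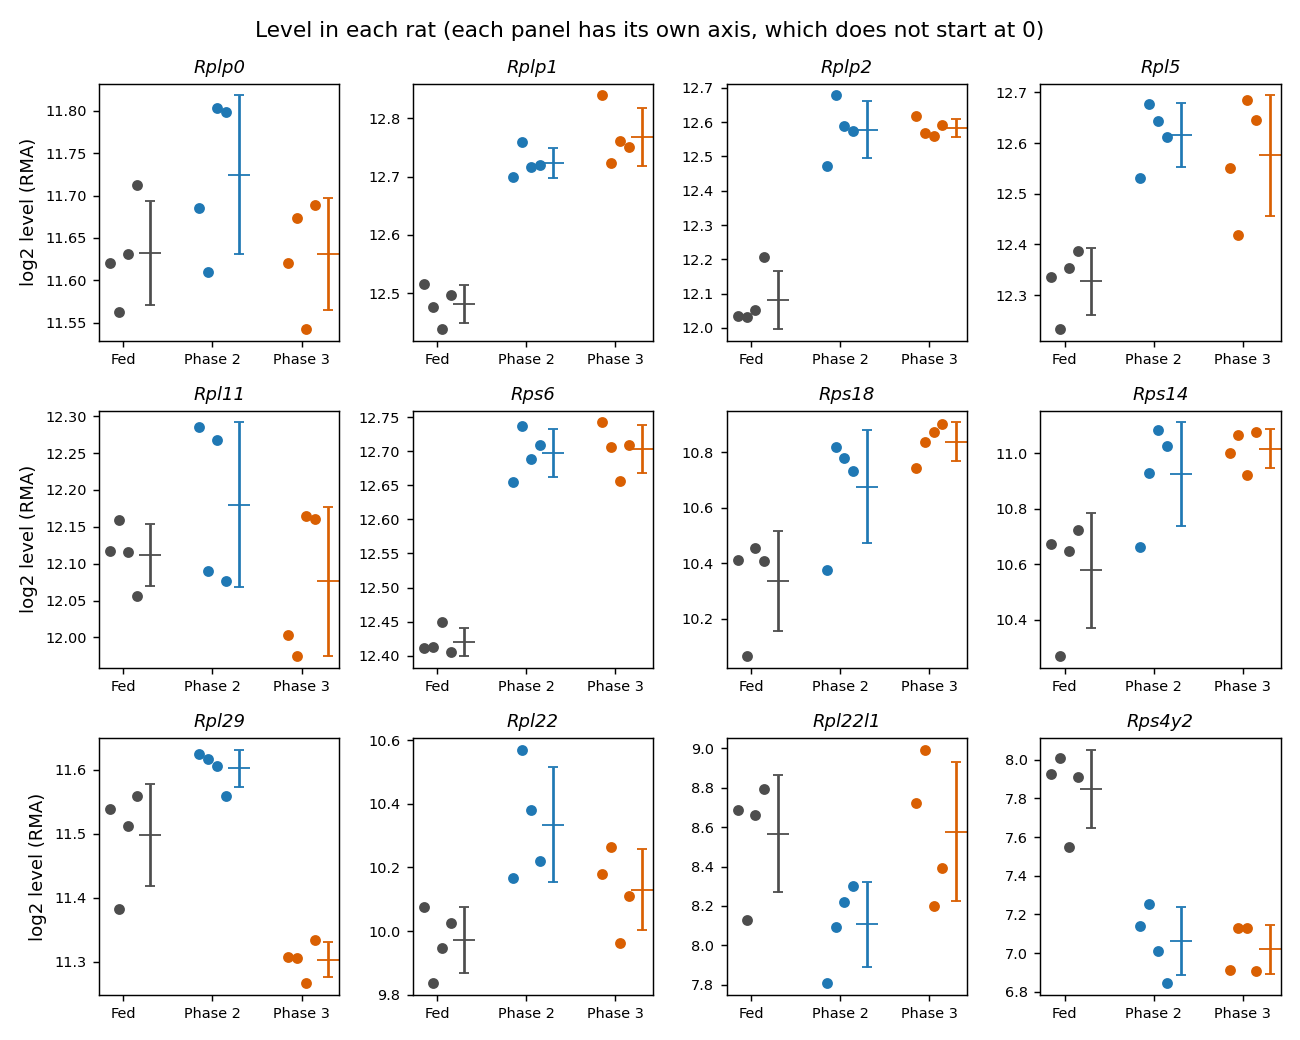
log2 level in each rat of 12 named members, by group, each panel on an axis of its own that does not start at 0; the bar gives the mean ± SD of 4 rats. In Rplp1, Rplp2, Rpl5 and Rps6 every fasted rat lies above the fed rats, in Rplp0 and Rpl11 the groups overlap, and in Rps4y2 every fasted rat lies below 7.3 and every fed rat above 7.5.

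Among the 39 large-subunit genes outside the stalk, Rpl7a had the largest rises of those called in both phases. Rpl7a, which codes for a protein that binds ribosomal RNA, read 10.98, 10.84, 11.00 and 11.00 in fed, 11.19, 11.30, 11.39 and 11.36 in phase 2, and 11.40, 11.37, 11.39 and 11.43 in phase 3 rats. No fasted rat overlapped the fed rats, and the changes were 0.35 ± 0.072 (adjusted p = 0.00238, limma) and 0.44 (adjusted p = 0.000151).

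Rpl5 and Rpl11 bind the 5S ribosomal RNA together, and outside the ribosome the same particle can hold MDM2 and so stabilise p53. Rpl5 read 12.34, 12.23, 12.35 and 12.39 in fed, 12.53, 12.68, 12.64 and 12.61 in phase 2 and 12.55, 12.42, 12.69 and 12.65 in phase 3 rats. All fasted rats lay above the fed rats, and the changes were 0.29 ± 0.0781 (adjusted p = 0.0142, limma) and 0.25 (adjusted p = 0.018). Rpl11 read 12.12, 12.16, 12.12 and 12.06 in fed, 12.29, 12.09, 12.27 and 12.08 in phase 2 and 12.00, 11.97, 12.16 and 12.16 in phase 3 rats, with overlapping groups. It was not called, and its 95% intervals were -0.10 to 0.24 in phase 2 and -0.21 to 0.13 in phase 3. The difference between the 2 genes was not tested.

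Rpl22 and Rpl22l1 are paralogs, and the protein of Rpl22 is known to hold down the message of Rpl22l1 in other cells. Rpl22 read 10.08, 9.84, 9.95 and 10.03 in fed, 10.17, 10.57, 10.38 and 10.22 in phase 2 and 10.18, 10.26, 9.96 and 10.11 in phase 3 rats. Every phase 2 rat lay above the fed rats, and the phase 3 rats overlapped them. It rose in phase 2, by 0.36 ± 0.101 (adjusted p = 0.0165, limma), and was not called in phase 3 (0.16, adjusted p = 0.219). Rpl22l1 read 8.69, 8.13, 8.66 and 8.79 in fed, 7.81, 8.09, 8.22 and 8.30 in phase 2 and 8.72, 8.99, 8.20 and 8.39 in phase 3 rats. Fed rat 2 lay among the phase 2 rats, and the other 3 fed rats above them.

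The fitted change of Rpl22l1 was -0.46 ± 0.178 in phase 2 (adjusted p = 0.0761, limma) and 0.01 in phase 3, and 0.47 between the phases (adjusted p = 0.0652). Neither value passed the threshold. The fall in phase 2 passed it without fed rat 2 (-0.61, adjusted p = 0.0196) and without phase 3 rat 2 or 3 (adjusted p = 0.0455 and 0.0492). The rise between the phases passed it without fed rat 2 (adjusted p = 0.0397), without phase 3 rat 3 (0.60, adjusted p = 0.0219) and when arrays were centred (0.56, adjusted p = 0.026). Over all alternatives the adjusted p of the phase 2 change ran from 0.0196 to 0.205.

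Rpl29, a small basic protein on the surface of the large subunit that also binds heparin, was the member that differed between the fasted phases. It read 11.54, 11.38, 11.51 and 11.56 in fed, 11.63, 11.62, 11.61 and 11.56 in phase 2 and 11.31, 11.31, 11.27 and 11.33 in phase 3 rats. All phase 3 rats lay below every rat of the other groups. The change was -0.30 ± 0.0673 against phase 2 (adjusted p = 0.00411, limma) and -0.20 against fed (adjusted p = 0.0289), after 0.10 in phase 2 (adjusted p = 0.309). The fall against fed was not called without fed rat 1 (-0.18, adjusted p = 0.0759), fed rat 3 (-0.19, adjusted p = 0.066) or fed rat 4 (-0.17, adjusted p = 0.0816), and was -0.04 (adjusted p = 0.608) when arrays were centred on their median. Of the 7 probe sets of Rpl29, 5 were called lower in phase 3, with changes from -0.23 to -0.18, and the other 2 were not called, at -0.15 each.

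Rpl15, another protein of the large subunit, read 8.02 to 8.20 in fed and 7.59 to 8.13 in phase 3 rats. It was not called in phase 3 against fed (-0.19, adjusted p = 0.151, limma) or against phase 2 (-0.27, adjusted p = 0.0776). Against phase 2 it was called without phase 3 rat 2 (-0.34, adjusted p = 0.028). Rpl13 was -0.19 against phase 2 (adjusted p = 0.122) and was called without phase 2 rat 2 (-0.25, adjusted p = 0.0454). Rpl36, the largest positive change between the phases among the core genes, was 0.17 (adjusted p = 0.214), after a rise of 0.32 in phase 3 against fed (adjusted p = 0.0145).

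Rpl13a and Rpl32 are used as reference genes in quantitative PCR. Rpl13a, whose protein can also leave the ribosome to silence inflammatory messages, rose by 0.25 ± 0.0647 in phase 2 (adjusted p = 0.0107, limma) and by 0.20 in phase 3 (adjusted p = 0.0204). Its fed rats read 11.54 to 11.66 and its fasted rats 11.78 to 11.90, with no overlap. Rpl32 read 12.04, 11.83, 11.99 and 12.07 in fed, 12.08, 12.16, 12.30 and 12.30 in phase 2 and 12.07, 12.10, 12.17 and 12.08 in phase 3 rats. The lowest fasted rat of each phase lay only just above the highest fed rat. Its change was 0.23 ± 0.0803 in phase 2 (adjusted p = 0.0481) and 0.13 in phase 3 (adjusted p = 0.222).

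Several of these calls near the threshold were lost when 1 rat was left out. In phase 2 Rps18 was not called in 6 such fits (any 1 of fed rats 1, 2 and 4 and of phase 2 rats 2, 3 and 4 left out), with changes of 0.25 to 0.37 in those fits and adjusted p from 0.0518 to 0.109 (limma). Rps14 was not called in 5 (fed rats 2 and 3, phase 2 rats 2, 3 and 4; changes of 0.24 to 0.37, adjusted p from 0.0542 to 0.105). Rps15a was not called in 6 (fed rats 1 and 2, phase 2 rats 2, 3 and 4, phase 3 rat 4; changes of 0.26 to 0.38, adjusted p from 0.0505 to 0.126), nor with the mean of its probe sets (adjusted p = 0.053) or a replicate block (adjusted p = 0.0769).

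Rpl22 was not called in phase 2 without fed rat 2 or phase 2 rat 2 (0.32 and 0.28, adjusted p = 0.0511 and 0.0561, limma). Rpl32 was called in phase 2 without phase 2 rat 1 or phase 3 rat 3, and in no other fit with 1 rat left out (0.18 to 0.26, adjusted p from 0.0535 to 0.14). It was also lost after cyclic loess (adjusted p = 0.0709), with only the groups compared (0.0546) and with a replicate block (0.0591). After centring, Rpl32 was called in phase 3 as well (0.28, adjusted p = 0.00946). In phase 3 the call of Rpl5 was lost without fed rat 2 or phase 3 rat 4 (0.22 and 0.22, adjusted p = 0.0543 and 0.0518), or after cyclic loess (0.21, adjusted p = 0.0525), and that of Rpl13a without fed rat 2 (0.18, adjusted p = 0.0595). The calls of Rplp1, Rplp2, Rps6 and Rpl7a against fed held in both phases in all 22 alternative fits of each, and that of Rps4y2 in the 21 in which it was tested, since it is too dim for the fit of genes with a mean of at least 10.

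Outside the core, Rps4y2 went the other way. It is a copy of the small-subunit gene Rps4x, and RefSeq places Rps4y2 on chromosome 4 in the rat. It read 7.93, 8.01, 7.55 and 7.91 in fed, 7.14, 7.25, 7.01 and 6.84 in phase 2 and 6.91, 7.13, 7.13 and 6.91 in phase 3 rats, with no overlap between fed and fasted rats. The fall was the largest change of any member, at -0.79 ± 0.115 (adjusted p = 0.000206, limma) in phase 2 and -0.83 (adjusted p = 3.55e-05) in phase 3. Rps4x itself was not called, with 0.17 in phase 2 (adjusted p = 0.0987) and 0.12 in phase 3 (adjusted p = 0.194). How far the copies share probes was not tested.

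Rpl17-ps16 is listed by RefSeq as a pseudogene of Rpl17 and rose by 0.33 (adjusted p = 0.00425, limma) and 0.43 (adjusted p = 0.000246). Its 1 probe set was dim, at a mean level of 6.13, beside a median of 6.92 over all genes tested. Rpl37l1, under which RefSeq also lists the symbol Rpl37, rose by 0.31 (adjusted p = 0.00582) and 0.37 (adjusted p = 0.000669). Rpl36al1 was -0.19 in phase 2 (adjusted p = 0.194) and -0.02 in phase 3 (adjusted p = 0.914). Rps19bp1, a nucleolar protein that binds Rps19 and is no ribosomal protein, was -0.13 (adjusted p = 0.261) and -0.09 (adjusted p = 0.365).

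Ribosomal protein genes have many processed pseudogenes, and a probe set named for one of them can bind the message of the parent gene. The 74 members had 262 probe sets with 254 distinct sets of values, and 55 members had more than 1. Of the 262, 102 were called higher and 1 lower in phase 2, and 94 higher and 7 lower in phase 3. In that fit, 9.75% of the brightest probe sets of all genes were called higher and 15.6% lower in phase 2. In phase 3 it was 21.2% and 24.3%. Probe sets of one gene mostly gave the same change: the range within a gene had a median of 0.04 in phase 2 and 0.05 in phase 3, and the sign was shared by all probe sets in 50 of the 55 genes in each. No gene had probe sets called in opposite directions. In 9 genes in phase 2 and 8 in phase 3, some probe sets were called and others were not. In phase 3 the brightest probe set of Rpl24 was not called (0.19), and its other one was (0.44, adjusted p = 0.00472, limma). For Rps9 the brightest was not called (0.15), and another was (0.30, adjusted p = 0.0103). The call of such a gene depends on the probe set chosen.

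Rpl7a had 13 probe sets, all called higher in both phases. Rpl36 had 10, all called higher in phase 3 and none in phase 2, and Rpl9 had 9, all called in phase 2 and none in phase 3. The 21 probe sets of Rpl21 were not called in either phase. Rpl31 had the widest range, 0.43 in phase 2 and 0.51 in phase 3: of its 7 probe sets, 6 changed by 0.00 to 0.07 in phase 3, while a dimmer one, at a mean level of 8.69, was called lower (-0.44, adjusted p = 0.00186 with every probe set tested, limma).

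**Figure D4:**
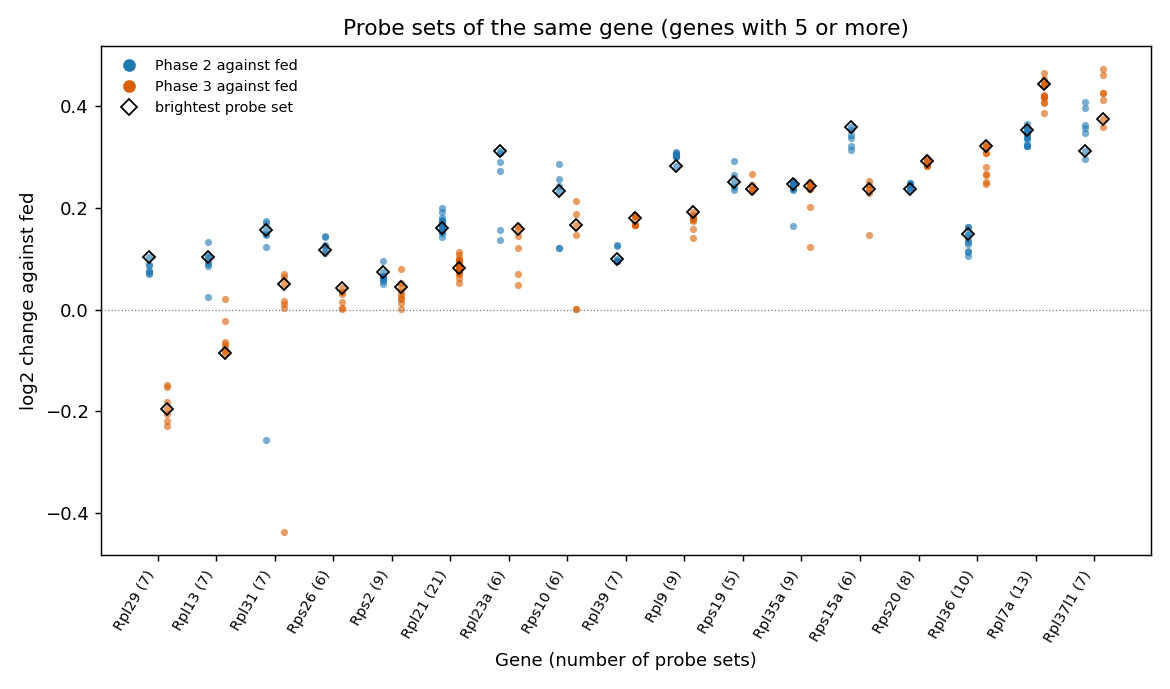
log2 change against fed of every probe set of the 17 genes with at least 5 probe sets, phase 2 in blue and phase 3 in orange, with diamonds for the brightest probe set. Rpl31 has the widest spread, from 1 probe set at -0.26 in phase 2 and -0.44 in phase 3, and Rps10 spans 0.00 to 0.21 in phase 3 and Rpl23a 0.14 to 0.31 in phase 2.

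Among members with a RefSeq promoter, 45 had a pyrimidine run at the annotated start. Their median change was 0.21 in phase 2 and 0.18 in phase 3, with 21 and 19 of the 45 called higher. The 16 without such a run had medians of 0.16 and 0.19, with 4 and 7 of the 16 called higher. Of all genes tested, 9.66% were called higher in phase 2 and 21.1% in phase 3. Rplp2, which rose most in phase 2, had no run beginning within 10 bases of its annotated start. Its printed window opens with C and T letters just farther upstream, so the limit of 10 bases decides its class. Rplp0, which was not called, had the run CTTCTCTC. These are single genes, and the difference between members with and without a run was not tested.

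Other genes of the translation machinery were read from lists chosen with earlier results of these data known. The genes of mitochondrial ribosomal proteins, whose ribosomes make a few proteins of the respiratory chain, were mostly lower in the fasted rats. Of 68, 1 was called higher and 39 lower in phase 2, and 3 higher and 43 lower in phase 3, with median changes of -0.32 and -0.41 (limma). The lower calls are 57.4% and 63.2% of the list, beside 15.5% and 24.3% of all genes. The higher calls are 1.47% and 4.41%, beside 9.66% and 21.1%. The median deviation per rat was -0.43 to -0.29 in phase 2 and -0.55 to -0.39 in phase 3, below the fed rats at -0.07 to 0.07. The difference between the cytosolic and mitochondrial lists was not tested.

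Other messages that carry a TOP tract, those of elongation and initiation factors and a few others, were called higher for 6 of 15 genes in phase 2 and none lower, and for 8 higher and 1 lower in phase 3 (limma). The phase 2 share is 40% higher, beside 9.66% of all genes higher and 15.5% lower. In phase 3 the shares are 53.3% higher and 6.67% lower, beside 21.1% and 24.3%. Eif4b, an initiation factor that helps unwind the message, rose by 0.78 (adjusted p = 4.07e-06) and 1.13 (adjusted p = 2.15e-08). Eif3h, a subunit of the initiation factor that binds the small subunit, rose by 0.52 and 0.67, and Naca, part of a chaperone at the tunnel exit, by 0.42 and 0.58. The exception in phase 3 was Nap1l1, a histone chaperone, at -0.33 (adjusted p = 0.00489). The median change of the list was 0.17 in phase 2 and 0.20 in phase 3.

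Genes of ribosome assembly, which act in the nucleolus and on export from the nucleus, were called mainly between the fasted phases and in phase 3. In phase 2 against fed 2 of 49 assembly genes were called higher and 9 lower, with a median of -0.03. These are 4.08% and 18.4%, beside 9.66% and 15.5% of all genes. In phase 3 against phase 2, 32 of 49 were called higher and none lower (limma), with a median of 0.35, and 44 had a positive sign. Of all genes, 12.8% were called higher there and 15.1% lower, and 55.9% had a positive sign. Wdr43, a factor of small-subunit processing, rose by 0.79 (adjusted p = 2.17e-06), Nob1, the enzyme that trims the small-subunit RNA, by 0.76 and Nmd3, an export adaptor of the large subunit, by 0.63. Phase 3 against fed gave 28 higher and 6 lower, with Nat10, an RNA acetyltransferase, at -0.52 and Nhp2, a protein of guide RNA particles, at -0.55. The shares are 57.1% higher and 12.2% lower, beside 21.1% and 24.3% of all genes. The difference between the assembly list and the ribosomal proteins was not tested.

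**Figure D5:**
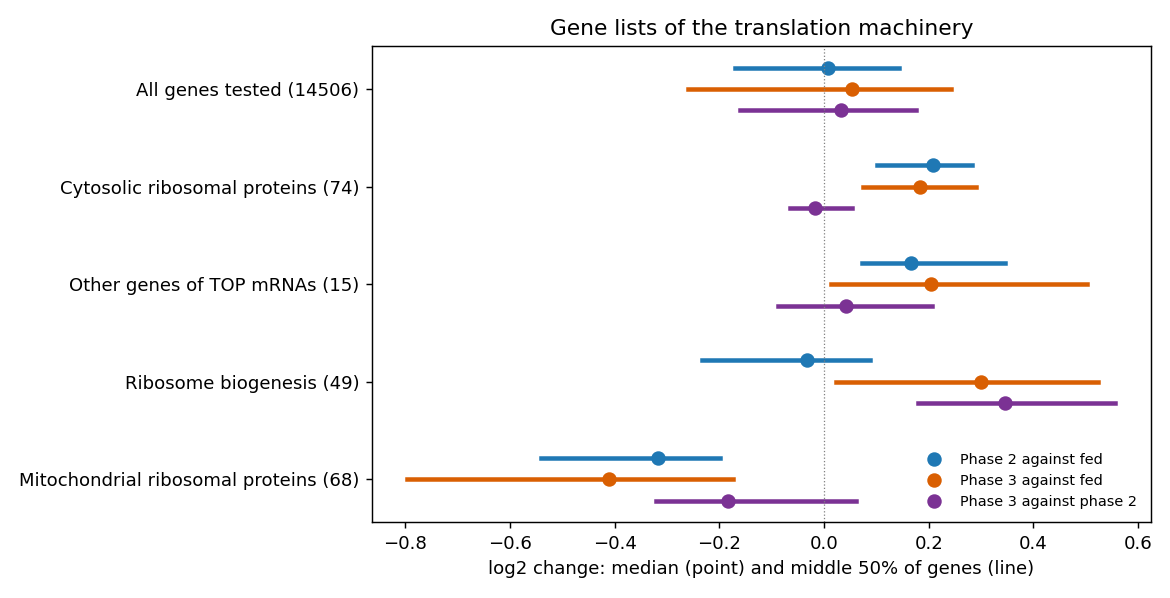
Median log2 change (points) and the middle 50% of genes (lines) for all genes tested and 4 gene lists, in 3 comparisons. Cytosolic ribosomal proteins lie above 0 against fed in both phases and at -0.02 between the phases, assembly genes lie at 0.35 between the phases, and mitochondrial ribosomal proteins lie below 0 in all 3.

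Of 21 genes that govern growth signalling, 4 were called higher and 5 lower in phase 2, and 9 higher and 6 lower in phase 3. These are 19% and 23.8% in phase 2, beside 9.66% and 15.5% of all genes, and 42.9% and 28.6% in phase 3, beside 21.1% and 24.3%. The named genes are those with the smallest adjusted p in each direction. Ddit4 and Sesn1, which restrain mTORC1, rose in phase 3 by 2.81 ± 0.296 (adjusted p = 2.62e-06, limma) and 1.67 (adjusted p = 2.11e-08). Tsc1 rose by 0.70 while its partner Tsc2 fell by 0.79, and Akt2, the kinase that carries the insulin signal in fat, fell by 1.58 (adjusted p = 1.45e-08). Sesn3 fell by 0.93.

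Markers of several cell types moved with the groups in the same samples. For the counts below, the share of all genes called was 9.66% higher and 15.5% lower in phase 2. In phase 3 it was 21.1% and 24.3%. The mean level of 12 adipocyte markers was 11.60 to 11.67 in fed, 11.17 to 11.31 in phase 2 and 9.60 to 10.37 in phase 3 rats, with 11 of 12 called lower in phase 3. In phase 2 the median change of these markers was 0.02, with 2 called lower, Lep (-4.12) and Slc2a4 (-1.88), and 1 higher, Pnpla2 (0.53). The 6 smooth muscle markers lay at 8.57 to 9.29, 9.79 to 10.65 and 9.69 to 10.38, all 6 called higher in both phases, and the 12 proliferation genes at 6.54 to 7.51, 5.51 to 5.94 and 5.27 to 5.59, with 11 called lower in each phase and 1, Pcna, called higher in phase 3 (0.51). Endothelial markers were called higher for 4 of 7 in phase 2 and 3 of 7 in phase 3, fibroblast and progenitor markers lower for 4 and 8 of 11 and higher for 2 in each phase, and lymphocyte markers lower for 0 and 6 of 10. Macrophage markers were called higher for 2 and 4 of 10 and lower for 1 and 4, skeletal muscle markers lower for 0 and 1 of 9, and markers of epididymis and testis higher for 0 and 4 of 11, at mean levels of 4.06 to 4.46. Their part in the members' change was not tested, and in a bulk sample fewer cells of a type and less message per cell cannot be told apart. Hepatocyte markers, read because the labels' extraction text names liver, had mean levels of 4.89 to 5.20 over all rats, and the adipocyte markers above were bright in each fed rat. Single hepatocyte markers did move. In phase 2, 1 of 12 was called lower (Apoc3, -1.33) and none higher. In phase 3, 1 was called higher (Hpx, 2.07) and 2 lower (Alb, -1.6, and Apoc3, -0.69).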

How the data were processed

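Total RNA, depleted of ribosomal RNA per the labels' protocols, was read on 1 array per rat. The deposited values are log2 expression levels; the submitters' processing notes name RMA, GCOS and Affymetrix Expression Console 1.1, with no order of steps. The number of arrays limits the precision. Of 29215 probe sets, 15310 had 1 platform symbol, 323 several and 13582 none; the brightest probe set stood for each gene.

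Group means of all 12 arrays were fitted with limma 3.58.1 in R 4.3.3 (lmFit, eBayes), and p-values were adjusted by Benjamini-Hochberg over 14506 genes; a call is an adjusted p below 0.05. The fit was tested on simulated data. Each array is 1 rat. The members and gene lists were chosen with earlier results of these data known. Named genes were, per comparison, the 6 largest rises and 6 largest falls among members, 11 members fixed by role (Rplp0, Rplp1, Rplp2, Rpsa, Rps6, Rpl5, Rpl11, Rps18, Rpl13a, Rpl32, Rps29), the 6 outside the core, and up to 3 genes a direction from each other list; others are named as seen. Scaling, probe set choice, filters, prior, block and single rats were varied. RefSeq (GRCr8) matched 73 members by gene identifier.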

Additional observations from a re-analysis of the deposited data

Results flagged for a closer look

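In each group of 4 rats the levels of 30 named members and the members' mean level were examined for a single rat far from the others, relative to the group's range. Of 93 such groups 10 met the limit, and chance gives about 1 in 20. Fed rat 2 accounted for 4. It was the lowest fed rat for Rps18 (10.06, next 10.41), Rps14 (10.27, next 10.65) and Rpl7a (10.84, next 10.98), and for the mean level of the 74 members (10.87, next 11.00). Phase 2 rat 1 was the lowest of its group for the mean level of the members (11.05, next 11.17) and for Rpl37l1 (11.97, next 12.15). In phase 3, rat 3 was lowest for Rpl37l1 (12.08, next 12.20) and rat 2 highest for Rpl17-ps16 (6.41, next 6.29). Among fed rats, rat 4 was highest for Rplp2 (12.21, next 12.05) and rat 3 highest for Rps6 (12.45, next 12.41).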

How the results depend on the processing

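The median change of the members was above 0 against fed in both phases under all 23 alternatives, from 0.17 to 0.27 in phase 2 and from 0.13 to 0.34 in phase 3, and no called value changed sign. Centring each array on its median gave the highest medians, 0.27, 0.34 and, between the phases, 0.073. It called 56 members higher and 1 lower in phase 3 against fed, with 42.2% and 18.4% of all genes. Between the phases it called 2 higher, with 21.5% of all genes. The count of lower members in phase 2 was 2 when only the arrays of the groups compared were fitted (18% of all genes). It was 0 when only genes with a mean of at least 10 were tested (31.4% of those genes). It was also 0 when only core members with a mean of at least 8 were counted (15.5% of all genes). In phase 3 it was 1 under each of these, with 23.2%, 40.4% and 24.3% of the genes tested called lower. Between the phases, 1 member was higher after a repeated quantile normalisation (14.1% of all genes). The same count was reached without the dimmest 40% of genes (21.1% of those tested). After cyclic loess 2 members were lower (16% of all genes). Leaving out 1 rat gave 17 to 36 higher and 1 to 2 lower members in phase 2. Of all genes, 6.9% to 11.5% were higher and 12.6% to 17% lower in those fits. In phase 3 it gave 23 to 35 and 1 to 2, with 18.3% to 21.9% and 22.3% to 24.1% of all genes. Between the phases it gave 0 to 1 and 1 to 2, with 9.87% to 13.4% and 12.9% to 15.1%. Some of these fits had fewer rats or genes, and the cause of these moves was not tested.

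Same-numbered rats of different groups showed little shared deviation (correlations from -0.15 to 0.19 over genes, and 2 of 12 arrays correlated best with their own number). The labels do not say that the numbers pair the rats. Low correlations in groups of 4 cannot exclude such a pairing. With the replicate number as a block, 24 members were higher and 1 lower in phase 2 (9.38% and 15% of all genes), and 28 higher and 1 lower in phase 3 (21% and 23.9%). Groups of 4 rats, and probe sets that may share probes, limit the precision.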
